A study of Mus musculus with 12 samples.

Results

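The genes described here make, spend and renew glutathione. They were taken as a list of 44 mouse gene symbols that covers glutathione synthesis and recycling, the glutathione transferases, the glutathione peroxidases with glutaredoxin, and the enzymes that turn glutathione conjugates into mercapturic acids. A spot on the array belonged to the list when its gene name, or the symbol of its Entrez Gene identifier, equalled a listed symbol. This rule found 57 spots for 43 of the 44 genes, among 26228 gene symbols on the array. No spot was assigned to Gsta1 here, and its level was not analysed. The rule used no measured value.

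The study measured RNA from female B6C3F1/Nctr mice, an F1 hybrid strain, on Agilent arrays that label each sample with the dye Cy3. The 12 arrays form 4 groups of 3: untreated liver, liver after acrylamide, untreated lung, and lung after acrylamide, with acrylamide labelled 0.7 mM. The series' design text calls the controls age-matched. The sources used here give no age, route or duration of exposure. Nothing in the labels ties the 3 arrays of a group to separate animals, so the p-values measure only how far these samples scatter, and that scatter may be technical.

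Glutathione is a tripeptide of glutamate, cysteine and glycine that cells use to neutralise peroxides and reactive chemicals. Glutamate-cysteine ligase and glutathione synthetase make it, glutathione reductase renews its oxidised form, and peroxidases spend it on hydrogen peroxide and lipid peroxides. Acrylamide is a reactive vinyl compound that CYP2E1 converts to the epoxide glycidamide. Both react with glutathione, and the conjugates are trimmed by gamma-glutamyl transferases and dipeptidases and then acetylated, which gives the mercapturic acids found in urine. Many genes of this system are known targets of the transcription factor NRF2 (encoded by Nfe2l2), which binds antioxidant response elements in DNA. The liver carries out most of the body's glutathione synthesis and is rich in transferases.

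The promoter sequences of 3 genes are shown first, chosen by how their arrays were arranged. On their brighter spots, Gstm5 and Gstm7 were the listed genes whose acrylamide arrays all lay above the control arrays in both tissues. Gclm is a textbook NRF2 target that had the opposite arrangement in liver. They come from RefSeq on build GRCm38.p6, a reference assembly and not the hybrid strain used here. A window is 300 bases, with 250 before an annotated transcript start and 50 from it. The capitals mark a match to the antioxidant response element core, TGACNNNGC, or to its form on the other strand, GCNNNGTCA.
Gstm5: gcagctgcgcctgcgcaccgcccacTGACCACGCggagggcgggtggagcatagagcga
Gstm7: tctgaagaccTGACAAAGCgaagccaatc
Gclm: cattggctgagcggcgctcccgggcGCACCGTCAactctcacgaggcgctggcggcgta
The Gstm5 stretch is chr3:107895787-107895845 on the + strand, and its match begins 42 bases before the start. The Gstm7 stretch is chr3:107931725-107931753 on the - strand. Its match begins 129 bases before 1 of the 2 starts listed for Gstm7 and lies after the other start. The Gclm stretch is chr3:122245398-122245456 on the + strand, and its match begins 134 bases before the start.

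Of the 44 listed genes, 37 had a window, and 7 of these held at least 1 match on either strand (18.9%). They were Gclm, Ggct, Ggt1, Gsta3, Gstm5, Gstm7 and Mgst1. Gstm4, Gstp1 and Glrx, whose acrylamide livers also all lay above the control livers, had a window without a match. Among all 27025 genes with a window, 14% held a match. The windows of Dpep2, Gclc, Ggt5, Gsr, Gsta4, Gstt2 and Oplah were not analysed here. A match is a string of letters and not a measured binding site.

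Levels below are log2 of a spot's intensity minus the array's 75th percentile over all spots that are not controls, so 0 is the brightness of that percentile and a step of 1 is a 2-fold change. The value applies to 1 spot and is not compared between genes. Each difference is given with its standard error, and groups have n = 3. Values are listed in the order of the numbers in the sample titles: 1, 3 and 4 for untreated liver, 27, 29 and 30 for acrylamide liver, 4, 5 and 6 for untreated lung, and 28, 29 and 30 for acrylamide lung. A spot counted as above background when it was over the 95th percentile of that array's 308 negative control spots, and a gene was tested when its brightest spot was above background on at least 3 arrays of a fit. Tests are limma's moderated test across all genes with Benjamini-Hochberg adjustment at 0.05. Many alpha, mu and pi transferases are close copies of each other. Probe sequences were not used here, so a spot may also take signal from another gene of its class.

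The tissue of each array follows the titles, since 1 label field, the extraction text and the design text name liver for all 12 arrays. The hepatocyte list (8 genes, such as Alb) averaged 8.06 to 8.64 on the 6 arrays titled liver and -0.70 to 0.45 on the 6 titled lung. The alveolar type 2 list (8 genes, such as Sftpc) averaged 5.10 to 5.39 on the arrays titled lung. Lung markers were not at a constant level in liver. Sftpc, the surfactant protein of type 2 cells, was at -7.45, -5.83 and -6.13 in untreated liver and at 2.63, -0.65 and -5.60 in acrylamide liver. Scgb1a1, the secretoglobin of airway club cells, was at -3.74, -3.25 and -2.80 and then at 2.35, 1.29 and -3.92. The acrylamide livers 27 and 29 thus carried both lung markers above the untreated livers. Liver 30 stood apart in brightness: its 75th percentile was 294.5 intensity units against 423.9 to 621.5 on the other liver arrays and 839.4 to 1375.7 on the lung arrays. It had 34287 spots above background against 46450 to 51099 on the other 11 arrays. The title codes begin with 19 for every liver array and 18 for every lung array, so tissue and that code cannot be told apart.

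The strongest contrast in the glutathione genes was between the untreated tissues. Of 43 genes tested, 28 were higher in untreated liver and 9 were higher in untreated lung at the adjusted threshold. Among all 23300 genes tested, 73.3% passed, with 42.9% higher in liver and 30.5% higher in lung. The median difference, lung minus liver, was -1.70 over the listed genes and -0.34 over all genes. Centring each array on its median, quantile scaling and a background correction against the negative controls moved the all-gene median to -0.13, -0.00 and -0.60. The listed genes then gave 9 higher in lung and 27 higher in liver, 11 and 26, and 8 and 29. Among all genes that passed, 41.6% were higher in lung, against 47.3%, 50.9% and 33.8% under those 3 scalings. Quantile scaling made the liver excess more than 1.5 times smaller for 9 genes that kept their call: 6.66-fold for Gpx1, 5.36-fold for Gsta3, 3.76-fold for Gstt1, 3.38-fold for Mgst1, 2.95-fold for Gstt3, 2.61-fold for Gstm1, 2.57-fold for Gstm3, 2.55-fold for Gstk1 and 1.95-fold for Gstp2. The background correction lowered the lung excess of Mgst2 to 95-fold and of Dpep2 to 13.7-fold. The folds given below for these genes are those on the 75th percentile scale. In whole tissue, fewer cells of a type and less RNA per cell cannot be told apart.

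**Figure D1:**
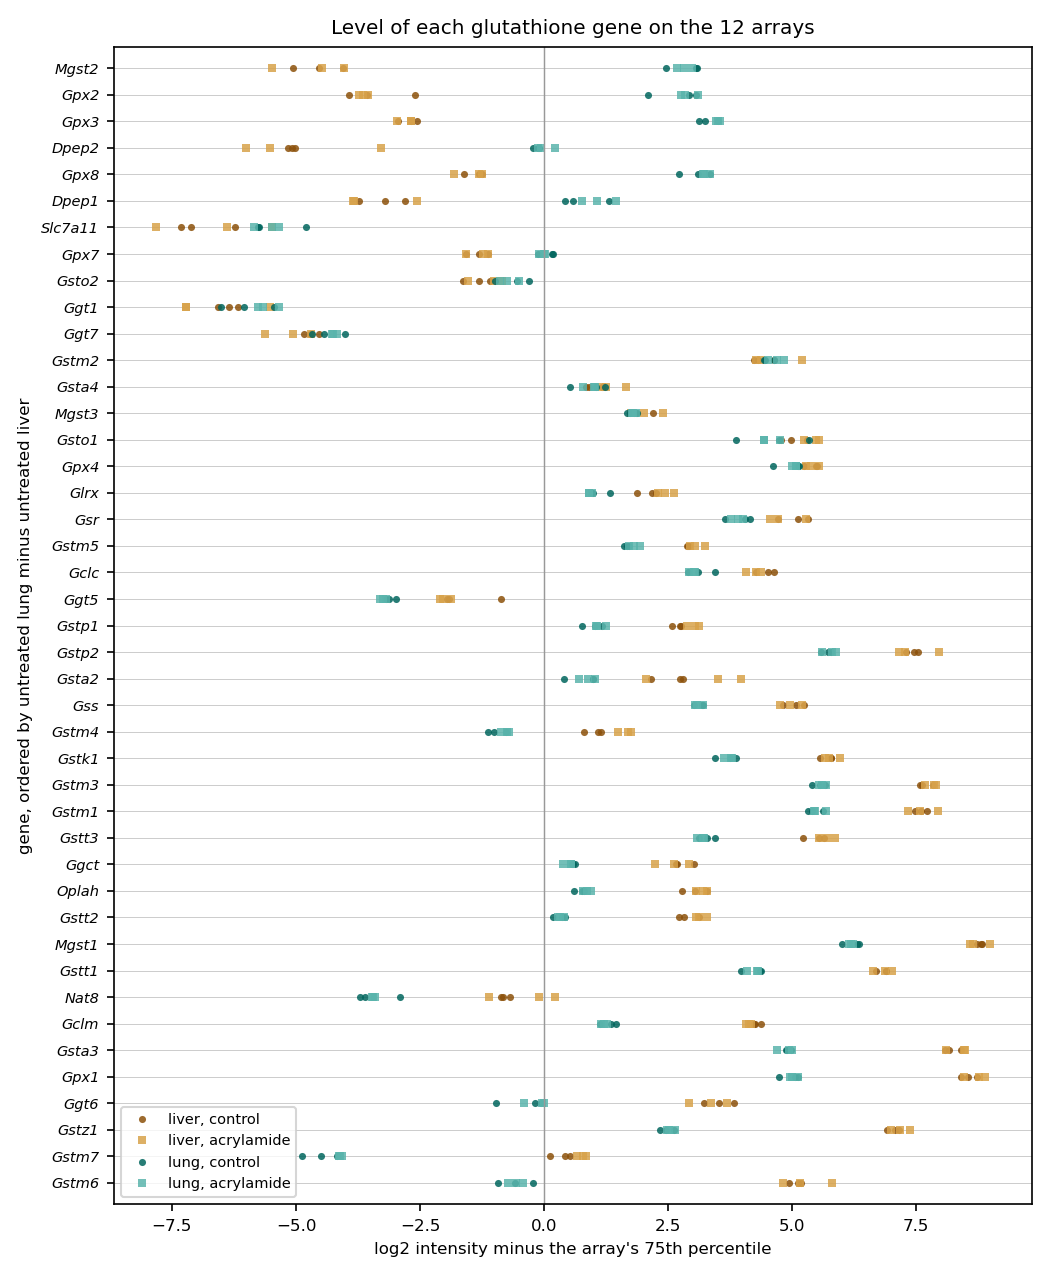
Level of each of 43 glutathione genes on the 12 arrays (x axis, log2 intensity minus the array's 75th percentile), with genes ordered by the difference between untreated lung and untreated liver. Circles are control arrays and squares acrylamide arrays, brown for liver and green for lung. Mgst2, Gpx2 and Gpx3 at the top lie far to the right in lung, Gstm6, Gstm7 and Gstz1 at the bottom lie far to the right in liver, and the circles and squares of a tissue mostly overlap.

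No listed gene passed the adjusted threshold after acrylamide in either tissue. In liver 0 of 42 tested genes passed (0% of all 21169 genes passed), and 2 had an unadjusted p under 0.05, where 6.04% of all genes did. In lung 0 of 43 passed (0% of all 22252 genes), and 0 had an unadjusted p under 0.05, where 4.95% of all genes did. The 42 listed genes in liver had a median difference of 0.09, with 26 means higher and 16 lower after acrylamide, while all genes had a median of -0.02. The 43 in lung had a median of 0.05, with 26 higher and 17 lower, while all genes had a median of -0.01. The median standard error of a listed gene was 0.19 in liver and 0.13 in lung.

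Separation of the arrays was counted as a description. In liver the 3 acrylamide arrays did not overlap the 3 controls for 6 of 42 genes: Gstm4, Gstm7, Glrx, Gstp1 and Gstm5 lay above and Gclm lay below. Among all genes tested in liver, 12.2% did not overlap. In lung this held for 4 of 43 genes, with Gstm5 and Gstm7 above and Ggct and Glrx below, where 10.9% of all genes did not overlap. On their brighter spots Gstm5 and Gstm7 were thus above in both tissues, and 0.362% of the 20415 genes tested in both tissues had that arrangement. Glrx lay above in liver and below in lung, and 0.49% of genes were separated in opposite directions. Leaving out an array can only keep or add separations of a spot, so the counts without an array could not fall. The liver count was 17 without acrylamide liver 27, 13 without liver 30 and 12 without control liver 4. In lung it was 14 without control lung 6, 12 without control 5, 11 without control 4, and 8 without acrylamide lung 29 or 30. The share of all genes was not counted without an array, so 12.2% and 10.9% do not apply to these counts. With quantile scaling or median centring the lung count was 2.

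The treatment difference itself was compared between the tissues. Of 43 genes, 0 differed between lung and liver at the adjusted threshold (0% of all 23300 genes), and 1, Glrx, had an unadjusted p under 0.05, where 4.44% of all genes did. The largest positive values, lung minus liver, were 0.70 ± 0.61 for Ggt1, 0.56 ± 0.33 for Ggt7 and 0.50 ± 0.56 for Dpep1. The largest negative values were -0.53 ± 0.60 for Gsta2, -0.52 ± 0.21 for Glrx and -0.50 ± 0.44 for Gsto1. The median over the listed genes was -0.01.

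**Figure D2:**
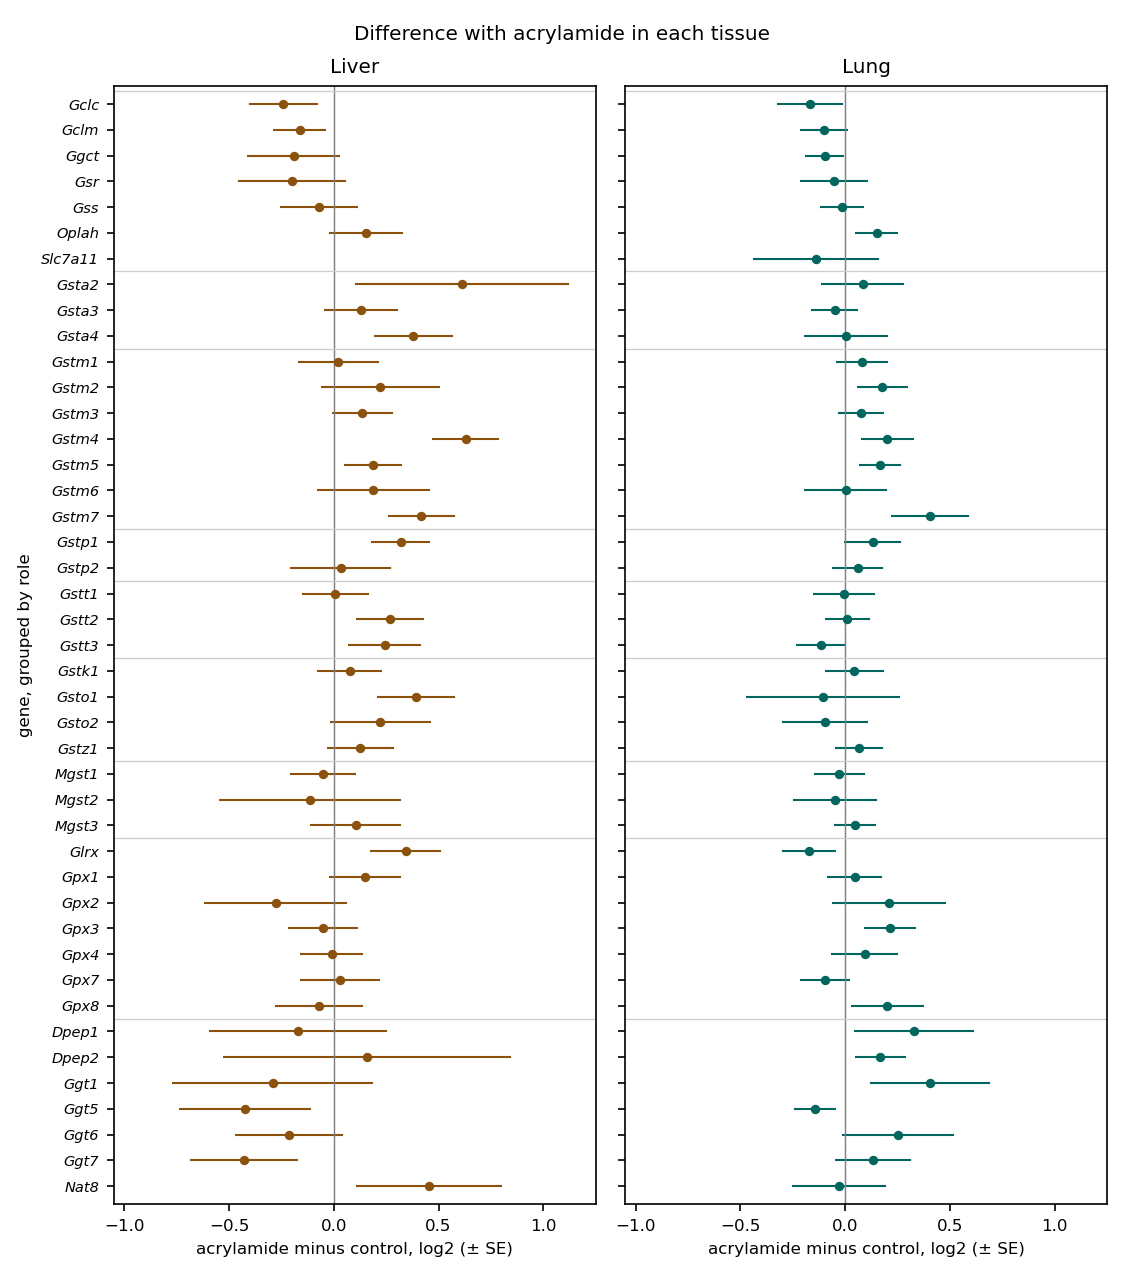
Acrylamide minus control for each glutathione gene (x axis, log2 difference), grouped by role, in liver and in lung; points are the fitted differences and bars their standard errors, with 3 arrays a group. In liver the transferases other than the microsomal ones sit at or to the right of 0, up to 0.63 for Gstm4. The synthesis genes sit mostly to the left, and none of the differences passed the adjusted threshold.

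The genes of glutathione synthesis and recycling were mostly higher in liver and showed no acrylamide difference past the test. Of 7 genes, 6 were higher in untreated liver and 1, Slc7a11, in untreated lung. In the treated liver 5 of 6 tested genes had lower means than in the untreated liver, and in lung 6 of 7 did. Among all genes 11250 of 21169 had a lower mean in liver and 11502 of 22252 in lung. With 1 array left out the liver count was 4 or 5. The lung count then ran from 3 to 6, with 3 of 7 without control lung 4 and 4 of 7 without control lung 5. Gclc encodes the catalytic subunit of glutamate-cysteine ligase, the rate-limiting enzyme of glutathione synthesis, and Gclm its modifier subunit.

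Gclm was at 4.25, 4.23 and 4.36 in untreated liver and at 1.44, 1.34 and 1.13 in untreated lung. This was a 7.89-fold higher level in liver (-2.98 ± 0.11, adjusted p = 3.86e-09). With acrylamide, liver was at 4.06, 4.12 and 4.17. All 3 lay below the lowest control, but by little: the difference was -0.16 ± 0.13, with a 95% interval from -0.47 to 0.14 and an adjusted p of 0.82. Acrylamide lung was at 1.21, 1.26 and 1.14, within the control range (-0.10 ± 0.11, interval -0.38 to 0.18). The upper bounds of the intervals are 0.14 in liver and 0.18 in lung.

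Gclc was at 4.27, 4.52 and 4.63 in untreated liver and at 4.06, 4.26 and 4.38 after acrylamide, and the groups overlapped (-0.24 ± 0.16, interval -0.64 to 0.16). In lung it was at 3.45, 3.11 and 2.89 and then at 2.92, 3.01 and 3.03. The treated lungs lay inside the control range (-0.17 ± 0.16, interval -0.56 to 0.22). Untreated liver held 2.50-fold more Gclc signal than untreated lung (adjusted p = 3.29e-05).

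Gss, glutathione synthetase, was at 4.82, 5.23 and 5.07 in untreated liver and 4.96, 4.75 and 5.20 in acrylamide liver. The lung arrays were at 3.21, 3.18 and 3.01 and then at 3.21, 3.05 and 3.09. The groups overlapped in each tissue, with differences of -0.07 ± 0.19 in liver (interval -0.52 to 0.38) and -0.01 ± 0.10 in lung. A dimmer spot of Gss gave 0.33 ± 0.15 in liver, so the sign of that difference depends on the spot. Both spots were lower in untreated lung than in untreated liver (-1.91 and -1.62), which for the brighter spot is a 3.75-fold difference.

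Gsr, the glutathione reductase that returns oxidised glutathione to its reduced form, was at 4.72, 5.32 and 5.11 in untreated liver and 4.55, 4.71 and 5.28 after acrylamide. Lung levels were 4.14, 4.05 and 3.64 and then 4.01, 3.90 and 3.77. Controls and treated arrays overlapped in both (-0.20 ± 0.26 in liver, interval -0.83 to 0.43; -0.05 ± 0.16 in lung). Gsr was 2.15-fold higher in untreated liver (adjusted p = 0.00127), a call that quantile scaling removed (-0.47, adjusted p = 0.0692).

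Oplah and Ggct belong to the gamma-glutamyl cycle, in which Ggct releases 5-oxoproline and Oplah returns it to glutamate. They were 4.96-fold and 4.58-fold higher in untreated liver. With acrylamide, Oplah gave 0.15 ± 0.18 in liver and 0.15 ± 0.10 in lung, and Ggct gave -0.19 ± 0.22 and -0.10 ± 0.09. The lung arrays of Ggct did not overlap, at 0.58, 0.62 and 0.56 without and 0.38, 0.54 and 0.55 with acrylamide, though 2 of the 3 treated arrays lay just below the lowest control.

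Slc7a11 encodes the cystine importer that supplies cysteine for glutathione and is another known NRF2 target. Its spot was close to background, being above it on 1 of 3 untreated and 1 of 3 acrylamide livers, so it was not tested for acrylamide in liver. In lung it was at -4.79, -5.76 and -5.74 and then at -5.85, -5.49 and -5.35, and the groups overlapped (-0.14 ± 0.30). The call of a higher level in untreated lung (1.46 ± 0.54, adjusted p = 0.0319) rests on these dim values. It became -0.62 (adjusted p = 0.0962) after background correction against the negative controls.

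The alpha, mu, pi, theta, kappa, omega and zeta transferases attach glutathione to reactive chemicals. All 19 that were tested in liver had a higher mean after acrylamide than in the controls, and none passed the adjusted threshold. In lung 14 of the 19 had a higher mean. These counts use the brightest spots. A dimmer Gstt2 spot gave -0.07 ± 0.21 in liver, while the other dimmer spots of these genes tested there gave positive differences. Genes of a class may share signal, so the 19 signs may not be independent. Among all genes 9919 of 21169 had a higher mean in liver and 10750 of 22252 in lung. In liver the count was 18 with each array centred on its median, 19 under the other 2 scalings, and between 13 and 19 when any 1 array was left out. The lowest, 13 of 19, was without acrylamide liver 30, the dim array. The median over the 19 was 0.22 with all arrays and 0.09 without that array. In lung the count was 11 with each array centred on its median and 10 without control lung 6. In the untreated tissues 15 of the 19 were higher in liver and 1, Gsto2, was higher in lung. The liver count was 15 under each of the 4 scalings, and quantile scaling added Gstm2 to the lung side.

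The mu class had the treated mean above the control mean for 7 of 7 genes in both tissues, with a median difference of 0.19 in liver and 0.17 in lung. Without acrylamide liver 30 the liver count was 4 of 7, with a median of 0.09. In lung it was 6 of 7 with median centring or quantile scaling. Gstm4, a mu-class transferase, was at 1.14, 0.80 and 1.09 in untreated liver and at 1.48, 1.69 and 1.75 in acrylamide liver. Every treated liver lay above every control liver. The difference was 0.63 ± 0.16, or 1.55-fold (interval 0.24 to 1.02, unadjusted p = 0.00747, adjusted p = 0.784 by limma), which did not pass. It was 0.71, 0.61 and 0.57 without acrylamide liver 27, 29 or 30. Each of these fits keeps at least 1 of livers 27 and 29, which carried the lung markers, and the part of those markers in the value was not tested.

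In lung Gstm4 was at -1.14, -0.77 and -1.01 without and -0.74, -0.86 and -0.71 with acrylamide. The groups overlapped, and the difference was 0.20 ± 0.13. The treatment difference between tissues for Gstm4 was -0.43 ± 0.20 (unadjusted p = 0.0569, adjusted p = 0.994), so the larger liver value was not shown to differ from the lung value. Untreated liver held 3.95-fold more signal than untreated lung (-1.98 ± 0.14).

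Gstm7 was at 0.52, 0.11 and 0.42 in untreated liver and at 0.85, 0.78 and 0.66 in acrylamide liver. In lung it was much dimmer, at -4.87, -4.18 and -4.49 without and -4.07, -4.12 and -4.14 with acrylamide. The treated arrays lay above the controls in both tissues. The differences were 0.42 ± 0.16 in liver, or 1.34-fold (unadjusted p = 0.0403, adjusted p = 0.784), and 0.40 ± 0.18 in lung, or 1.32-fold (adjusted p = 0.998), and neither passed. Untreated liver exceeded untreated lung by 29.1-fold (-4.86 ± 0.18, adjusted p = 3.45e-09). A dimmer Gstm7 spot gave 0.58 ± 0.22 in liver, but its groups overlapped there. It was at -3.78, -4.11 and -4.05 in untreated liver and at -3.19, -3.20 and -3.80 after acrylamide. In lung it gave -0.04 and was above background on 1 of 3 control and 0 of 3 acrylamide arrays. Its -4.91 between tissues rests on those dim lung values.

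Gstm5, a mu class gene known for high expression in brain and testis, was at 2.90, 2.87 and 2.91 in untreated liver and 2.94, 3.04 and 3.25 in acrylamide liver. Its lung levels were 1.70, 1.60 and 1.66 and then 1.94, 1.82 and 1.71. The separation was narrow in each tissue, with the closest arrays 2.91 and 2.94 in liver and 1.70 and 1.71 in lung. The differences were 0.19 ± 0.14 in liver (adjusted p = 0.815) and 0.17 ± 0.10 in lung (adjusted p = 0.998). A dimmer Gstm5 spot gave 0.17 ± 0.15 and 0.17 ± 0.11.

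Gstm6 showed the largest liver excess of the listed genes, 50.4-fold (-5.65 ± 0.25, adjusted p = 1.51e-08). It was at 5.18, 4.93 and 5.12 in untreated liver and at -0.22, -0.59 and -0.92 in untreated lung. The acrylamide livers were at 4.82, 5.16 and 5.81, the widest range of its 4 groups, and acrylamide lung was at -0.42, -0.73 and -0.57 (0.19 ± 0.27 and 0.00 ± 0.20). A dimmer Gstm6 spot gave other values. It was at 1.37, 0.97 and 1.17 in untreated liver and 1.72, 1.94 and 1.96 in acrylamide liver, with all 3 treated arrays above the controls. In a fit of all 47024 spots it gave 0.70 ± 0.17 (unadjusted p = 0.00618, adjusted p = 0.736), close to the 0.63 of Gstm4, and its tissue difference was -1.86. These 2 spots carry the same transcript accession.

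The other mu genes gave small acrylamide differences. Gstm1 and Gstm3 were 4.45-fold and 4.42-fold higher in untreated liver, and their acrylamide differences were 0.02 ± 0.19 and 0.14 ± 0.15 in liver and 0.08 ± 0.12 and 0.08 ± 0.11 in lung. A dimmer Gstm1 spot gave 0.36 ± 0.17 in liver. Gstm2 did not differ past the test between the untreated tissues (0.12 ± 0.23, interval -0.40 to 0.63; 0.75 with quantile scaling, adjusted p = 0.00988), with acrylamide differences of 0.22 ± 0.28 in liver and 0.18 ± 0.12 in lung.

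The alpha class includes Gsta2, an inducible transferase of rodent liver and a known NRF2 target. It was at 2.15, 2.73 and 2.79 in untreated liver and at 2.05, 3.50 and 3.97 after acrylamide. The treated livers 29 and 30 lay above all controls and liver 27 lay below them all. The difference of 0.61 ± 0.51 had an interval from -0.63 to 1.85, and it was 1.18 without liver 27 and 0.21 without liver 30. Lung was at 0.98, 0.99 and 0.40 and then at 0.71, 1.03 and 0.88, with overlap (0.08 ± 0.20). Gsta2 was 3.41-fold higher in untreated liver (adjusted p = 0.00336).

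Gsta3 is the alpha transferase known in mice for its action on aflatoxin epoxide. It was at 8.16, 8.07 and 8.41 in untreated liver and 4.88, 4.90 and 4.98 in untreated lung, a 9.79-fold difference (adjusted p = 1.51e-08). Acrylamide liver was at 8.09, 8.46 and 8.48 and acrylamide lung at 4.99, 4.69 and 4.94, and each overlapped its controls (0.13 ± 0.18 and -0.05 ± 0.11). Gsta4, which conjugates the lipid peroxidation product 4-hydroxynonenal, did not differ past the test between the untreated tissues (-0.04 ± 0.20, interval -0.49 to 0.41). It gave 0.38 ± 0.19 in liver and 0.01 ± 0.20 in lung.

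The pi class holds Gstp1 and Gstp2, neighbouring genes that are nearly the same in sequence, and signal may be shared between their spots. Gstp1 was at 2.74, 2.58 and 2.75 in untreated liver and at 2.87, 3.03 and 3.13 in acrylamide liver. All 3 treated livers lay above the controls, with a difference of 0.32 ± 0.14 (1.25-fold, interval -0.02 to 0.66, adjusted p = 0.784). The lung arrays were at 1.02, 1.17 and 0.77 and then at 1.07, 1.24 and 1.05, with overlap (0.13 ± 0.14, interval -0.20 to 0.46). Gstp2 gave 0.03 ± 0.24 in liver and 0.06 ± 0.12 in lung. The untreated liver excess was 3.26-fold for Gstp1 and 3.33-fold for Gstp2.

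The theta class, whose members act on small halogenated compounds and epoxides, was higher in untreated liver for all 3 genes, by 6-fold for Gstt1, 5.93-fold for Gstt2 and 4.51-fold for Gstt3. In acrylamide liver the differences were 0.01 ± 0.16, 0.27 ± 0.16 and 0.24 ± 0.17. Gstt3 was at 5.54, 5.21 and 5.63 in untreated liver and 5.54, 5.71 and 5.86 after acrylamide. Lung arrays were at 3.12, 3.44 and 3.29 and then at 3.23, 3.08 and 3.20, with overlap in both tissues. The lung difference of Gstt3 was -0.11 ± 0.12.

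Gstz1, the maleylacetoacetate isomerase of tyrosine breakdown, was at 6.91, 7.15 and 7.08 in untreated liver and at 2.46, 2.62 and 2.33 in untreated lung. Liver was higher by 23.9-fold (-4.58 ± 0.13, adjusted p = 9.25e-10). The acrylamide livers were at 6.98, 7.17 and 7.37 and acrylamide lung at 2.63, 2.47 and 2.51, each overlapping its controls (0.13 ± 0.16 and 0.07 ± 0.11). Gstk1, the mitochondrial and peroxisomal kappa enzyme, was 4.06-fold higher in liver and gave 0.08 ± 0.15 and 0.04 ± 0.14 with acrylamide.

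Gsto1, an omega transferase that reduces dehydroascorbate, was at 4.98, 4.78 and 5.30 in untreated liver and 5.47, 5.53 and 5.23 after acrylamide. Lung levels were 5.33, 4.74 and 3.87 and then 4.44, 4.75 and 4.44. Untreated lung spanned more than the difference between the tissues, which did not pass (-0.37 ± 0.31, adjusted p = 0.299) and was 0.29 with quantile scaling (adjusted p = 0.465). The acrylamide differences were 0.39 ± 0.19 in liver and -0.10 ± 0.37 in lung. Gsto2 was 1.67-fold higher in untreated lung (adjusted p = 0.0167), and its acrylamide differences were 0.22 ± 0.24 and -0.10 ± 0.20.

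The microsomal transferases sit in membranes. Mgst2, which can also make leukotriene C4, had the largest tissue difference of the list. It was at -4.06, -4.53 and -5.07 in untreated liver and 3.07, 3.08 and 2.46 in untreated lung, a 171-fold difference (7.42 ± 0.37, adjusted p = 3.4e-08). Acrylamide liver was at -4.04, -4.47 and -5.49, above background on 2 of 3 arrays, and acrylamide lung at 2.81, 2.97 and 2.67 (-0.11 ± 0.44 and -0.05 ± 0.20). Mgst1, an abundant enzyme of liver microsomes, was 5.95-fold higher in untreated liver and gave -0.05 ± 0.16 and -0.03 ± 0.12. Mgst3 did not differ past the test between untreated tissues (-0.19 ± 0.17, interval -0.57 to 0.19).

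The peroxidases divided between the tissues. Of 7 genes, Gpx2, Gpx3, Gpx7 and Gpx8 were higher in untreated lung, and Gpx1, Gpx4 and Glrx were higher in untreated liver. Gpx3, the secreted plasma peroxidase, was at -2.68, -2.56 and -2.94 in untreated liver and 3.12, 3.25 and 3.50 in untreated lung, or 64.7-fold higher in lung (6.02 ± 0.14, adjusted p = 2.94e-10). Acrylamide lung was at 3.55, 3.46 and 3.50, above 2 of the 3 controls (0.22 ± 0.12, adjusted p = 0.998). The acrylamide livers were at -2.69, -2.96 and -2.69.

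Gpx2, the epithelial peroxidase of gut and airway and a known NRF2 target, was at -3.93, -3.56 and -2.61 in untreated liver and 3.06, 2.92 and 2.10 in untreated lung. Lung was higher by 66.6-fold (6.06 ± 0.33, adjusted p = 7.07e-08). Acrylamide liver was at -3.65, -3.55 and -3.73 (-0.28 ± 0.34) and acrylamide lung at 2.84, 3.10 and 2.75 (0.21 ± 0.27), with overlap in each. On acrylamide livers 27 and 29, where Sftpc and Scgb1a1 were high, Gpx2 (-3.65 and -3.55) lay inside the untreated liver range. Gpx3 (-2.69 and -2.96) and Mgst2 (-4.04 and -4.47) lay inside or just past the edge of theirs. Other genes higher in untreated lung, such as Gpx8, Dpep1 and Dpep2, are given with their values below. The part of the lung markers in any of these values was not tested.

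Gpx8 and Gpx7 are peroxidases of the endoplasmic reticulum. Gpx8 was at -1.25, -1.31 and -1.62 in untreated liver and 3.10, 3.34 and 2.72 in untreated lung, or 21.7-fold higher in lung (4.44 ± 0.20, adjusted p = 1.53e-08). The acrylamide livers were at -1.26, -1.31 and -1.82 and acrylamide lung at 3.20, 3.22 and 3.34, overlapping the controls in each (-0.07 ± 0.21 and 0.20 ± 0.17). Gpx7 was 2.67-fold higher in untreated lung and gave 0.03 ± 0.19 and -0.10 ± 0.12.

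Gpx1, the cytosolic peroxidase that clears hydrogen peroxide, was at 8.54, 8.41 and 8.72 in untreated liver and 4.74, 5.11 and 5.06 in untreated lung. Liver was higher by 12-fold (-3.59 ± 0.15, adjusted p = 1.03e-08). With acrylamide liver was at 8.47, 8.77 and 8.88 and lung at 4.99, 4.95 and 5.11, overlapping the controls in each. The differences were 0.15 ± 0.17 in liver (interval -0.27 to 0.57) and 0.05 ± 0.13 in lung (interval -0.28 to 0.37).

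Gpx4, which reduces lipid peroxides in membranes, was at 5.24, 5.49 and 5.48 in untreated liver and 5.27, 5.38 and 5.53 after acrylamide. Its lung levels were 4.62, 5.11 and 5.13 and then 5.08, 5.07 and 4.99. Treated arrays lay within or next to the control range in both tissues, with differences of -0.01 ± 0.15 in liver (interval -0.37 to 0.35) and 0.09 ± 0.16 in lung (interval -0.30 to 0.49). Its 1.37-fold excess in untreated liver (adjusted p = 0.021) is not stable to scaling: quantile scaling gave 0.24 in favour of lung (adjusted p = 0.0852), and median centring gave -0.25 (adjusted p = 0.2).

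Glrx encodes glutaredoxin, which removes glutathione from protein thiols. It was at 2.18, 1.88 and 2.26 in untreated liver and 2.62, 2.43 and 2.3 in acrylamide liver, with every treated array above the controls (0.34 ± 0.17, adjusted p = 0.784). The lung arrays were at 0.99, 0.97 and 1.33 and then at 0.91, 0.90 and 0.97, with the treated arrays all below the controls, by less than the rounding for the closest pair (-0.17 ± 0.13, adjusted p = 0.998). The difference between the tissues in the treatment effect was -0.52 ± 0.21 (interval -0.98 to -0.05, unadjusted p = 0.0329, adjusted p = 0.994), which did not pass. Glrx was 2.01-fold higher in untreated liver.

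The mercapturate genes process conjugates outside and inside the cell. The dipeptidases split cysteinylglycine conjugates, and both were higher in lung. Dpep1 was at -2.81, -3.73 and -3.20 in untreated liver and 0.58, 0.43 and 1.3 in untreated lung, or 16.2-fold higher in lung (4.02 ± 0.39, adjusted p = 5.84e-06). With acrylamide liver was at -2.56, -3.83 and -3.86 and lung at 1.45, 0.77 and 1.06, with overlap in both (-0.17 ± 0.42 and 0.33 ± 0.29). Dpep2 was at -5.09, -5.16 and -5.03 in untreated liver and -0.23, -0.13 and -0.10 in untreated lung, or 30.7-fold higher in lung (4.94 ± 0.54, adjusted p = 1.45e-05). Acrylamide liver was at -5.52, -6.01 and -3.28 for Dpep2, with the dim array 30 the highest, and acrylamide lung was at -0.06, -0.12 and 0.21. Its liver difference was 0.16 with all arrays and -0.67 without liver 30.

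Nat8, the N-acetyltransferase that completes mercapturic acids, was at -0.68, -0.82 and -0.87 in untreated liver and -1.12, -0.10 and 0.21 after acrylamide. Livers 29 and 30 lay above the controls and liver 27 below them, the same order of arrays as for Gsta2, and the difference was 0.45 ± 0.35. It was 0.85 without liver 27 and 0.18 without liver 30. Lung levels were -3.71, -3.62 and -2.91 and then -3.41, -3.45 and -3.46 (-0.03 ± 0.22). Nat8 was 6.16-fold higher in untreated liver (adjusted p = 2.88e-05).

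The gamma-glutamyl transferases remove glutamate from glutathione and its conjugates. Ggt6 was at 3.53, 3.23 and 3.83 in untreated liver and -0.07, -0.18 and -0.97 in untreated lung, or 15.3-fold higher in liver (-3.94 ± 0.28, adjusted p = 4.92e-07). With acrylamide it was at 2.91, 3.36 and 3.69 in liver and -0.01, -0.05 and -0.40 in lung (-0.21 ± 0.26 and 0.25 ± 0.27), with overlap in each. Ggt1, the enzyme used as a clinical liver marker, was close to background, at -6.35, -6.16 and -6.58 in untreated liver and -7.22, -7.22 and -5.53 after acrylamide, where 1 of 3 arrays was above background. In lung Ggt1 was at -5.44, -6.04 and -6.52 and then at -5.35, -5.66 and -5.76. Its differences were -0.29 ± 0.48 in liver and 0.41 ± 0.29 in lung, and the groups overlapped in each. The liver value was -0.85 without liver 30, -0.01 without liver 27 or 29, and -0.61 with quantile scaling.

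Ggt7 was at -4.72, -4.54 and -4.83 in untreated liver and -5.06, -4.69 and -5.63 after acrylamide, above background on 2 of 3 treated arrays. Lung arrays were at -4.01, -4.67 and -4.43 and then at -4.28, -4.17 and -4.26. The groups overlapped (-0.43 ± 0.26 in liver and 0.13 ± 0.18 in lung). Between the untreated tissues Ggt7 did not pass the test (0.33, adjusted p = 0.231), and it was -0.29 after background correction (adjusted p = 0.134). The tissue direction of Ggt1 depends on the processing. It did not pass on the 75th percentile scale (0.36, adjusted p = 0.462), passed as higher in lung with quantile scaling (0.78, adjusted p = 0.0228), and passed as higher in liver after background correction (-1.0, adjusted p = 0.0169).

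Ggt5, which acts on leukotriene C4, gave opposite tissue differences from its 2 spots. The brighter spot was at -1.96, -1.92 and -0.87 in untreated liver and -2.98, -3.19 and -3.13 in untreated lung, higher in liver (-1.52 ± 0.25, adjusted p = 0.000277). The dimmer spot was at -6.05, -5.67 and -5.79 in untreated liver and -4.19, -4.23 and -4.24 in untreated lung, higher in lung (1.61 ± 0.15, adjusted p = 5.25e-06). The spots carry different accessions, and Ggt5 therefore has no settled direction here. With acrylamide the brighter spot was at -2.10, -1.87 and -2.04 in liver and -3.30, -3.24 and -3.19 in lung (-0.42 ± 0.32 and -0.14 ± 0.10). The dimmer spot in lung was at -4.52, -4.78 and -4.62 after acrylamide, below all controls (-0.42 ± 0.11, unadjusted p = 0.0102, adjusted p = 1).

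**Figure D3:**
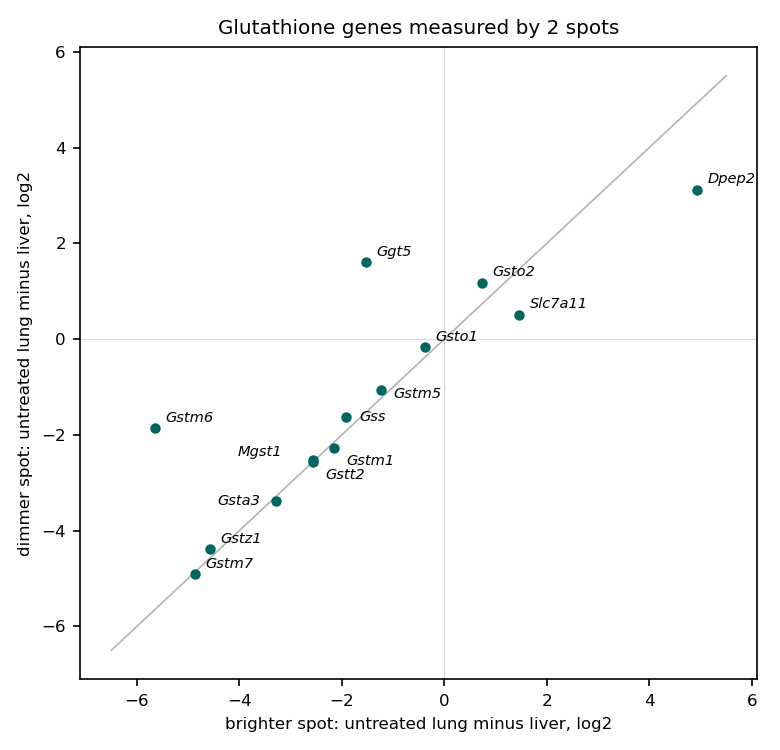
Untreated lung minus untreated liver (log2) from the brighter spot (x axis) and the dimmer spot (y axis) of the 14 glutathione genes with 2 spots; each point is a gene and the diagonal marks equal values. Most points lie near the diagonal, Ggt5 lies in the opposite quadrant (-1.52 and 1.61), and Gstm6 lies far above the line (-5.65 and -1.86).

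Over all 14 genes with 2 spots, the tissue difference had the same sign for 13, with Ggt5 the exception, and was within 0.5 for 10. The acrylamide differences had the same sign for 10 of 14 in liver, where Slc7a11 is counted though it was not tested there, and for 8 of 14 in lung. Slc7a11 gave 1.46 and 0.51 between tissues and Dpep2 gave 4.94 and 3.12. A dimmer spot of Gsto2, at -6.51, -6.38 and -6.21 in untreated lung and -7.10, -7.19 and -6.85 after acrylamide, was below all controls (-0.68 ± 0.14, unadjusted p = 0.00294, adjusted p = 1), while its brighter spot gave -0.10.

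The treated livers did not shift together. Relative to the mean of the untreated livers, the median over 42 genes was -0.10 on acrylamide liver 27, 0.06 on liver 29 and 0.24 on liver 30. The untreated livers themselves were at -0.05, 0.02 and 0.06. Liver 30, the dim array, was the highest of the 6 liver arrays for 23 of the 42 genes, and liver 27 was the lowest for 13. The acrylamide lungs were at 0.08, 0.01 and 0.04 and the control lungs at 0.03, 0.09 and -0.06. Among the lung arrays, control lung 6 was the lowest for 20 of the 43 genes and control lung 4 for 14. Acrylamide lung 28 was the highest for 13 and control lung 4 for 11. The authors' series matrix multiplies each array by 1 factor, which brings the 75th percentiles close together. Its median over all spots was 79.3, 73.4 and 81.4 on untreated livers 1, 3 and 4. On acrylamide livers 27, 29 and 30 it was 72.1, 76.8 and 89.7. That median was thus also highest on liver 30 and lowest on liver 27, so the shifts were not shown to be particular to the listed genes. The part of array brightness in these shifts was not tested.

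**Figure D4:**
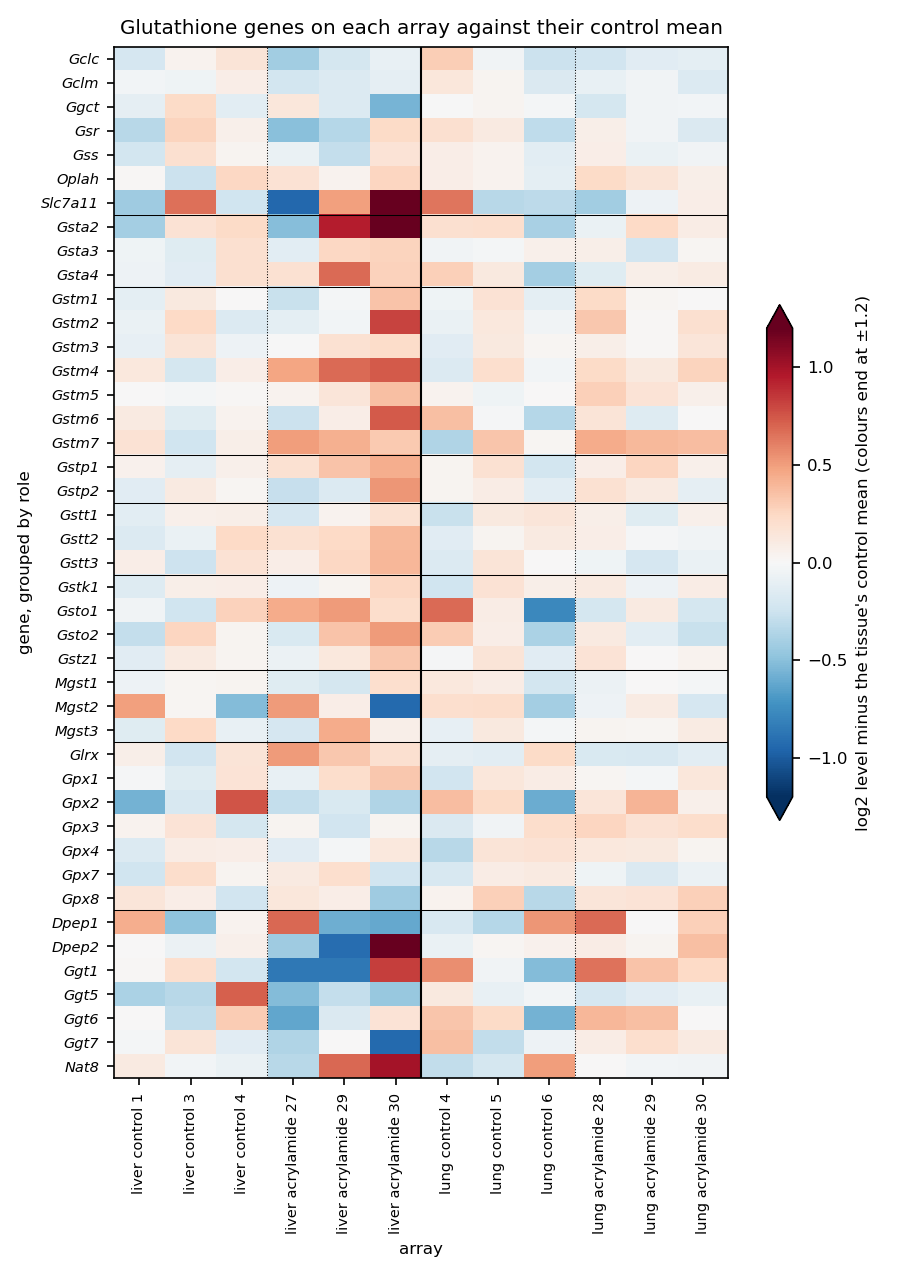
Level of each glutathione gene on each array minus the mean of that tissue's 3 control arrays (colour, log2 difference), with genes in rows by role and the 12 arrays in columns. Acrylamide liver 30 is the most strongly coloured column upward, with a median of 0.24, while acrylamide liver 27 has a median of -0.10; the acrylamide lungs lie near 0.

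The marker lists of other cells were also set side by side in liver, and 0 of their genes passed the adjusted threshold after acrylamide. The club cell list (5 genes) averaged 0.96, 0.61 and 0.97 in untreated liver and 3.63, 3.21 and 0.75 in acrylamide liver. The alveolar type 2 list averaged -3.13, -3.09 and -2.86 and then -0.72, -1.21 and -2.50. On liver 30, 4 of this list's 8 genes were above background, against 6, 6 and 7 on the untreated livers. That array's background limit was 16.77 intensity units, against 2.50 to 4.45 on the other livers. The part of background in the -2.50 was not tested. The macrophage list (6 genes) averaged 1.66, 1.25 and 1.82 and then 2.2, 2.07 and 1.93, with 6 of 6 means higher after acrylamide. The endothelial list (5 genes) averaged 0.19, 0.16 and 0.24 and then 0.36, 0.39 and 0.26, with 3 of 5 means higher. The smooth muscle and fibroblast list (5 genes) averaged 0.37, -0.56 and 0.02 and then -1.82, -0.60 and -0.77, with 3 of 5 means lower. The alveolar type 2, macrophage and endothelial lists thus lay above all controls, the smooth muscle and fibroblast list lay below them, and the other 8 lists overlapped, the hepatocyte and club cell lists among them. Gstm4 and Gstm7, the genes with an unadjusted p under 0.05 in liver, were lower in untreated lung than in untreated liver (-1.98 and -4.86). The part of the marker lists in the transferase values, Gstm4 and Gstm7 included, was not tested. Marker levels varied between the lung arrays too. The striated muscle list (4 genes) averaged 2.46, 1.24 and -0.40 in untreated lung and 1.12, 2.47 and 1.15 in acrylamide lung. Alb was at 3.11, 3.10 and 4.21 and then at 4.22, 4.11 and 3.05. The part of these markers in the lung values was not tested.

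Beyond the 44 genes, a second list held 28 other glutathione genes, and 25 were tested in liver. After acrylamide 12 had higher and 13 lower means there, 0 passed and 1 had an unadjusted p under 0.05 (6.04% of all genes did). The largest differences were 0.77 ± 0.41 for Gpx6, an olfactory peroxidase, -0.68 ± 0.44 for Ltc4s, the leukotriene C4 synthase, and 0.57 ± 0.31 for Chac1, which degrades glutathione. In lung 11 of 27 were higher and 16 lower, with 0 passing and 0 at an unadjusted p under 0.05 (4.95% of all genes). The largest there were -0.71 ± 0.31 for Gstcd, -0.65 ± 0.32 for Gpx6 and 0.49 ± 0.65 for Gstt4, whose spot was above background on 3 of the 6 lung arrays. Gpx6 thus had values of opposite sign in the tissues. In the difference of the treatment effect between tissues 0 of 28 passed (0% of all genes), and 3 had an unadjusted p under 0.05 (4.44% of all genes).

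Another list held 13 genes of cysteine supply and NADPH, which feed glutathione synthesis and reduction. After acrylamide 8 were higher and 5 lower in liver, and 8 and 5 in lung, with 0 passing and 1 at an unadjusted p under 0.05 in each. The largest in liver were 0.70 ± 0.37 for Ahcy, which hydrolyses S-adenosylhomocysteine, 0.39 ± 0.15 for Gnmt, the glycine methyltransferase, and 0.34 ± 0.21 for Cth, which makes cysteine from cystathionine. In lung they were 0.34 ± 0.29 for Ahcy, 0.27 ± 0.10 for Mat1a, the liver form of methionine adenosyltransferase, and 0.20 ± 0.12 for G6pdx, which makes NADPH.

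Both lists were also compared between the untreated tissues, where 42.9% of all genes were higher in liver and 30.5% in lung. Of the 28 other glutathione genes 16 were higher in liver and 5 in lung, and of the 13 supply genes 11 were higher in liver and 2 in lung. Mat1a, Gnmt and Cbs, all of methionine and homocysteine metabolism, differed by -8.45 ± 0.11, -8.15 ± 0.14 and -7.22 ± 0.17. Acy3, an aminoacylase that acts on mercapturic acids, differed by -3.93 ± 0.16, and Hagh, glyoxalase II, by -3.84 ± 0.12. Abcc2, a canalicular exporter of glutathione conjugates, was at 2.91, 2.98 and 2.86 in untreated liver. Its spot was near background in untreated lung, at -9.05, -8.37 and -8.34 and above background on 2 of 3 arrays, so no fold is given.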

How the data were processed

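Per the submitters' processing notes, signals were extracted with Agilent Feature Extraction 10.7. The deposited text file of each array holds 1 intensity per spot on a linear scale, for 62976 spots including 1319 controls, and the sources used here give no further step of the authors. In the authors' deposited series matrix each array's intensity values are multiplied by 1 factor per array. From the deposited intensity values, log2 was taken and each array's 75th percentile over its 61657 other spots subtracted. Spots were named by Entrez identifier (38054), accession (715) or the file's own name (2242), and 20646 stayed unnamed. The brightest spot stood for a gene.

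Differences were fitted with limma 3.58.1 (lmFit, eBayes) in R 4.3.3: within liver (6 arrays), within lung (6), and over all 12 arrays for the tissue contrast and for the treatment difference between tissues. P-values were adjusted over all genes tested (Benjamini-Hochberg, 0.05). The fitting was tested on simulated data. Intervals are 95%, and their width reflects how few arrays there are.

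The listed genes, the other lists and the tests were chosen with earlier results of these data known. Values on every array are given for the 5 largest differences each way in a tissue, the 3 largest in the difference between tissues, the 6 largest between tissues, genes with an unadjusted p under 0.05, and Gclc, Gclm, Gss, Gsr, Gpx1, Gpx4 and Gstp1. Other genes with their values, such as Gstm5, Glrx, Ggct and dimmer spots, were chosen after their values were seen. Up to 3 genes are named per other list and comparison. Alternatives were 3 other scalings or corrections (quantile, array median, normexp with an offset of 16), the series matrix, background filters, the mean of a gene's spots, an intensity trend, array weights, the title code's digit as a block, the title number as a block, and each array left out. The dimmer spot was an alternative chosen after seeing the data.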

Additional observations from a re-analysis of the deposited data

Results flagged for a closer look

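Glrx, the glutaredoxin gene, was separated in opposite directions in the tissues. In liver every acrylamide array was above every control array (0.34), and in lung every acrylamide array was below every control array (-0.17), on the log2 scale with 3 arrays a group. The closest lung pair differed by less than the rounding of its printed values. The test of the difference between tissues in the 12-array limma fit gave -0.52 ± 0.21 with an adjusted p of 0.994. Over the alternatives that difference ran from -0.59 to -0.40, with adjusted p from 0.21 to 1. Separation in opposite directions was found for 0.49% of all genes tested in both tissues.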

How the results depend on the processing

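No listed gene passed the adjusted threshold for acrylamide in liver, in lung or in their difference under any alternative run. Among all genes some did pass under alternatives, so the 0% given above belongs to the main fits. For the difference between tissues 139 of 23300 passed with array weights, 136 of 23251 without acrylamide liver 30 and 8 of 23150 without liver 27. For liver 2 of 23300 passed in a fit of all 12 arrays. Of 1179 values of named genes under alternatives, 1132 kept their direction and side of the threshold, 6 lost the call and 41 changed sign, the latter in 16 of 65 gene results. The number of genes at an unadjusted p under 0.05 ran from 1 to 5 in liver, 0 to 2 in lung and 0 to 4 for the difference between tissues. The number with groups that do not overlap ran from 6 to 17 in liver and 2 to 14 in lung. The upper ends came from leaving out an array, which can only keep or add separations of a spot. For the counts at an unadjusted p and of groups that do not overlap, the share of all genes was not taken under the alternatives. The shares given for the main fits do not apply to these ranges. The median tissue difference of -1.70 was -1.34 with quantile scaling and -1.50 with median scaling, and -1.78 to -1.57 with 1 array left out. The background correction moved the all-gene median of the difference between tissues in the treatment effect from -0.00 to 0.13.

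Signs changed with quantile scaling for Gpx4 in liver (0.030) and between tissues (0.24). With the mean of a gene's spots they changed for Gss in liver (0.13) and in the difference between tissues (-0.13), and for Slc7a11 in lung (0.051). With array weights they changed in lung for Slc7a11 (0.053) and Gpx1 (-0.022), and with the title code's digit as a block for Gpx1 in lung (-0.0042). With the dimmer spot they changed for Gss in liver (0.33), in lung (0.01) and in the difference (-0.32), for Slc7a11 in lung (0.24) and for Ggt5 between tissues (1.61). The cause was not tested. With 1 array left out, values crossed 0 in liver for Gpx4 (-0.092 to 0.0505), Gss (-0.18 to 0.041) and Gpx2 (-0.56 to 0.10). In lung this held for Slc7a11 (-0.30 to 0.18), Gss (-0.076 to 0.026), Gsr (-0.20 to 0.048), Gpx1 (-0.068 to 0.12), Gpx4 (-0.070 to 0.18) and Ggt6 (-0.030 to 0.42). In the difference it held for Gclc (-0.056 to 0.22), Gsr (-0.0030 to 0.37), Gss (-0.055 to 0.17), Gpx4 (-0.060 to 0.19) and Gclm (-0.024 to 0.13). The tissue call of Gpx4 was also lost with median scaling (adjusted p = 0.2), between the acrylamide tissues (0.0601), and without control liver 3 (0.0592), control liver 4 (0.0638) or control lung 4 (0.0703).

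The title numbers 4, 29 and 30 occur in both tissues, but same-numbered arrays did not deviate together (correlations over 15888 genes of -0.06, -0.02 and -0.25). With the title number as a random replicate block the difference between tissues kept 0 called genes and a median of -0.01, and the tissue contrast 9 and 28 called genes with a median of -1.70, so the block changed no call. Leaving out an array leaves a group of 2. Dim spots such as Slc7a11, Ggt1 and Ggt7 limit what can be read in liver.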
